A study of Mus musculus with 15 samples.

Results

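The comparison asks, gene by gene, whether an active Notch1 transgene had a different effect in splenic regulatory T cells that still had Rbpj than in cells in which Rbpj was deleted. The quantity is the interaction on the log2 scale: the N1c_RBPJdel minus RBPJdel difference, minus the N1c minus control difference. A value of 0 means that the transgene moved a gene by the same factor in both settings, a negative value that it moved the gene less far up (or further down) when Rbpj was deleted, and a positive value the opposite. All 15 arrays of the series enter the contrast, in 4 genotype groups taken from the array titles, and all 19752 genes read by a probe set (transcript cluster) that names 1 gene were tested, of 24922 features in the table. No measured value was used to choose arrays or genes.

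Regulatory T cells (Treg) restrain other lymphocytes and are defined by the transcription factor Foxp3. Every array held Treg from the spleens of 6-week-old male mice, sorted as CD3+ TCR beta+ CD4+ cells carrying the green Foxp3 reporter after cells with CD8, B220, CD11b, CD11c or Gr1 had been gated away. Cells of several mice were pooled, and each array received amplified RNA from 40000 to 50000 of them, on the Affymetrix Mouse Gene 1.0 ST array. All 4 groups carry Foxp3EGFPCre, in which Cre is expressed with Foxp3, so the genetic changes are directed to Foxp3-expressing cells. Control cells (4 arrays) carry Foxp3EGFPCre alone. N1c cells (4 arrays) also carry R26N1c/N1c, a Cre-dependent active form of Notch1 in the Rosa26 locus on both alleles. RBPJdel cells (4 arrays) are RBPJ∆/∆, from floxed alleles, without the transgene. N1c_RBPJdel cells (3 arrays) carry both changes, and they alone were sorted on a FACSAria where the other 12 samples went through a MoFlo. Instrument and double-mutant genotype therefore cannot be told apart in any value below that uses the N1c_RBPJdel arrays, which includes every interaction. The sources do not say whether arrays of 1 group came from separate litters or days, so p-values measure the spread between pools of this kind, which may be partly technical.

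When a Notch receptor is engaged by a ligand on a neighbouring cell, its intracellular part is cut free and enters the nucleus. There it binds the DNA-binding protein RBPJ and the coactivator Mastermind and switches on target genes such as those of the Hes and Hey repressor families. Without the intracellular part, RBPJ is held by corepressors at many of the same sites, so its loss can both remove activation and lift repression.

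The deletion was visible in Rbpj itself. Rbpj intensities were 571, 472, 470 and 483 in control, 528, 572, 500 and 489 in N1c, 260, 294, 293 and 225 in RBPJdel, and 175, 258 and 201 in N1c_RBPJdel. All 7 arrays with the deletion lay below all 8 without it; in pooled cells, fewer expressing cells and less RNA per cell cannot be told apart. RBPJdel minus control was -0.90 log2 (limma, adjusted p = 0.0021), and the interaction of Rbpj, -0.42 ± 0.18 (SE), was not called (adjusted p = 0.332). A second Rbpj probe set was dim, with group means between 51.7 and 60.8. Notch1 ranged from 836 to 1582 over the arrays without the deletion and from 896 to 1613 over those with it, and its interaction of -0.43 ± 0.27 was not called (adjusted p = 0.534). Whether that probe set reads the transgene is not given in the sources used here, so Notch1 does not check the N1c label. Foxp3 intensities lay between 3543 and 6248 on all 15 arrays, and those of Il2ra, the high-affinity interleukin-2 receptor chain, between 5326 and 7153. Neither had an interaction call, Foxp3 at -0.14 ± 0.18 and Il2ra at -0.07 ± 0.15.

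The transgene effect differed with the deletion of Rbpj in 166 genes, 0.84% of those tested, at a Benjamini-Hochberg adjusted p under 0.05 in limma. The interaction was negative in 103 genes (0.521%) and positive in 63 (0.319%), its size ran from 0.63 to 3.11, and it was 1 or more in 90 genes. Each of the 166 had the same sign when recomputed from linear intensities. Over all genes the median interaction was -0.01 with a median SE of 0.17, and 2552 genes had an unadjusted p under 0.05. Quantile normalization called 89 positive and 100 negative genes. For comparison, the transgene changed 326 genes without the deletion (1.65%), 185 of them up (0.937%) and 141 down (0.714%); with the array number as a block it changed 494, of which 313 were among the 326. With the deletion it changed 452 (2.29%), 261 up (1.32%) and 191 down (0.967%), and the deletion alone changed 22 (0.111%). These counts rested on single arrays: the positive count was 37 to 40 without N1c 2, RBPJdel 1, RBPJdel 2 or RBPJdel 3 and 228 without N1c_RBPJdel 2. The negative count was 61 to 67 without control 4, RBPJdel 1, RBPJdel 2, RBPJdel 3 or N1c_RBPJdel 1 and 250 without N1c_RBPJdel 2. The number changed with the deletion ranged most, from 76 to 121 without N1c_RBPJdel 1 or any of RBPJdel 1 to 3, through 300 without control 3, to 1890 without N1c_RBPJdel 2, and the number changed without the deletion was 217 without control 4.

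**Figure D1:**
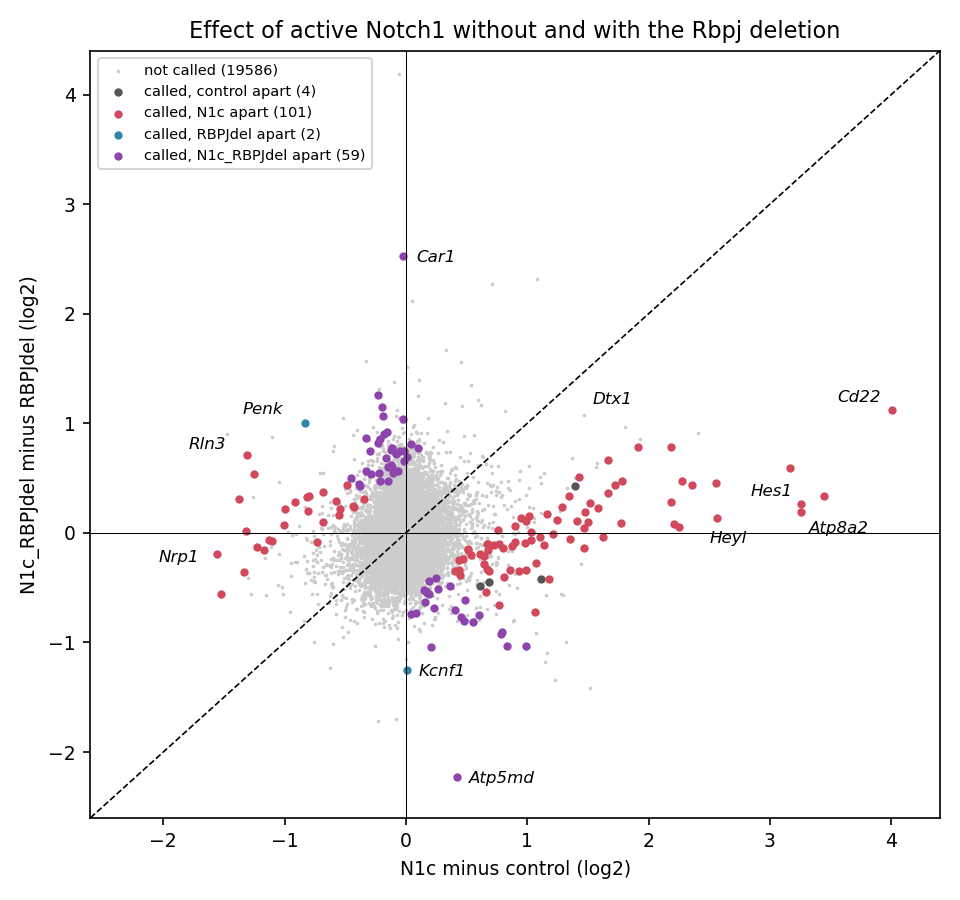
The horizontal axis is the N1c minus control difference and the vertical axis the N1c_RBPJdel minus RBPJdel difference, both log2, 1 point per gene, coloured where the interaction was called and by the group whose mean stood apart. Genes on the dashed diagonal had equal effects; Hes1, Heyl and Atp8a2 lie far to the right near the horizontal zero line, Dtx1 close to the diagonal, and Atp5md and Car1 far below and above zero at a small N1c effect.

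An interaction can arise in different ways, so each called gene was assigned to the group that stood apart, which is the group whose removal leaves the other 3 group means closest together. N1c stood apart in 101 of the 166 genes: 74 of the negative ones, with a median N1c effect of 1.09 without the deletion and -0.02 with it, and 27 of the positive ones, with medians of -0.91 and 0.22. N1c_RBPJdel stood apart in 59 genes, 24 negative and 35 positive, where the median N1c effect was 0.32 and -0.15 without the deletion and -0.71 and 0.73 with it. Control stood apart in 4 genes and RBPJdel in 2. Over all 19752 genes the double mutant stood apart most often, in 50.2%, with N1c at 17.9%, RBPJdel at 17.2% and control at 14.7%. Brightness also differed between the classes: 31 of the 35 positive genes of the double-mutant class were dim (mean log2 value below the median of all genes). The N1c class held 15 dim genes among 101. Of the 35, 16 had symbols of predicted genes, antigen receptor segments, olfactory or vomeronasal receptors or small RNAs, which were counted together. The double-mutant class was the less steady: leaving out 1 array gave 6 to 15 negative genes without control 2, control 4, control 5, N1c 1, N1c 2, RBPJdel 1, RBPJdel 2, RBPJdel 3 or N1c_RBPJdel 1, 52 without RBPJdel 4 and 132 without N1c_RBPJdel 2. Its positive count was 19 to 22 without control 5, N1c 2, RBPJdel 1, RBPJdel 2 or RBPJdel 3, 56 without N1c 5, 62 without N1c_RBPJdel 3 and 200 without N1c_RBPJdel 2. The N1c class held 49 to 112 negative genes (lowest without RBPJdel 2, highest without N1c_RBPJdel 2) and 14 to 27 positive ones, with 14 to 17 without control 2, N1c 2 or RBPJdel 1 to 3.

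**Figure D2:**
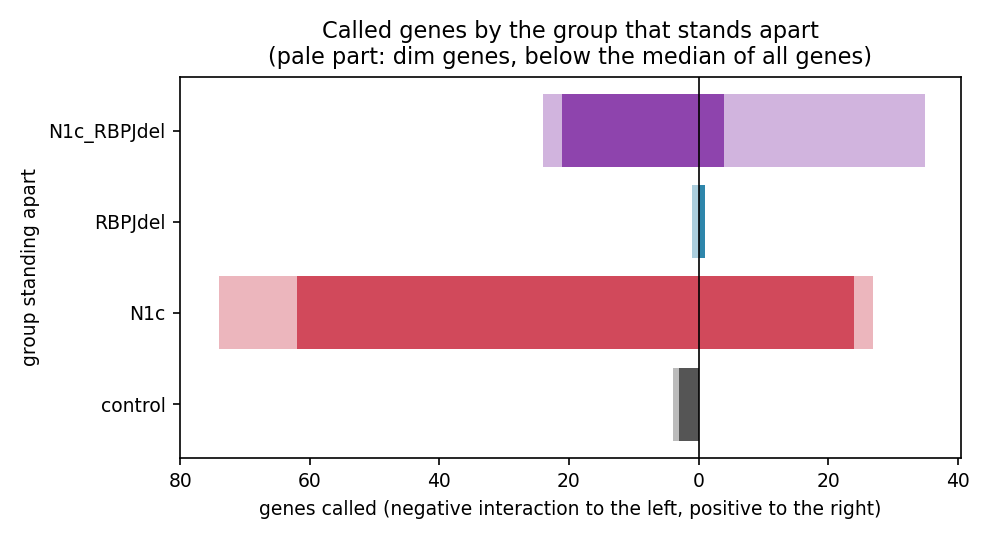
Number of called genes (horizontal axis) by the group standing apart (vertical axis), negative interactions to the left and positive to the right, with dim genes in the pale part of each bar. N1c holds 74 negative and 27 positive genes, most of them bright, whereas 31 of the 35 positive genes of N1c_RBPJdel are dim.

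RBPJ binds DNA at a core of TGGGAA, and the promoters of called genes show where these letters occur. Promoter windows of 300 bases (250 before and 50 after the start) from RefSeq, build GRCm38.p6, were found for 122 of the 166 called genes, 81 of the 103 negative ones. The promoters of Hes1, Hey1 and Heyl were not analysed here. TGGGAA on either strand was in 25.6% of all 32851 promoters of the table and in 24% of those of the genes tested. It was in 22 of 74 promoters (29.7%), of 53 genes, among the negative genes with N1c apart and in 4 of 23 (17.4%) of the positive ones. With N1c_RBPJdel apart TGGGAA was in 3 of 25 (12%) of the negative and 7 of 22 (31.8%) of the positive promoters. Over all called genes it was in 24.8% of negative and 24.4% of positive promoters, near the share of the genes tested. The longer GTGGGAA, which overlaps the first motif, was in 6.38% of all promoters and 6.14% of those of the genes tested. With N1c apart it was in 10.8% of the negative and 0 of 23 of the positive promoters, with N1c_RBPJdel apart in 4% and 9.09%. These are descriptions of letters in a short window. The 250 bases before the start are shown for 4 genes, 2 negative and 2 positive. These are the genes of the naming rule given under the processing that had N1c apart and a match there. Capitals mark TGGGAA, or TTCCCA where the match is on the opposite strand. The match begins 145 bases before the start in Cd22, 225 and 131 bases before it in Actn1, 75 in Ccr6 and 33 in Fgl2, and in Actn1 the first match lies in the longer form.
Cd22, chr7:30879029-30879278, minus strand: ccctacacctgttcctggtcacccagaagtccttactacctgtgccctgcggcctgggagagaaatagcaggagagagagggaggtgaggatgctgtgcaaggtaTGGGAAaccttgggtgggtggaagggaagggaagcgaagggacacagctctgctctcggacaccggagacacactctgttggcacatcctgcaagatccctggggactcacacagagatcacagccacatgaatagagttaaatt
Actn1, chr12:80260364-80260613, minus strand: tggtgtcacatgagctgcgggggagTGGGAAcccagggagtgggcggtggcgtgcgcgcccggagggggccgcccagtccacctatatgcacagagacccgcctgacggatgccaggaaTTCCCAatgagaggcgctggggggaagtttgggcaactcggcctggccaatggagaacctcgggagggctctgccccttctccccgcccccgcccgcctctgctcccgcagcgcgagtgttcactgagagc
Ccr6, chr17:8242276-8242525, plus strand: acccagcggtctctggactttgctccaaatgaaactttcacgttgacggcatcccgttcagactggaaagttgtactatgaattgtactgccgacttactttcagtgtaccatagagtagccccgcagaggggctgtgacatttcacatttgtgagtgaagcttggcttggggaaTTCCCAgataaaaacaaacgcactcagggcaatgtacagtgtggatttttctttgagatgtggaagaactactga
Fgl2, chr5:21372423-21372672, plus strand: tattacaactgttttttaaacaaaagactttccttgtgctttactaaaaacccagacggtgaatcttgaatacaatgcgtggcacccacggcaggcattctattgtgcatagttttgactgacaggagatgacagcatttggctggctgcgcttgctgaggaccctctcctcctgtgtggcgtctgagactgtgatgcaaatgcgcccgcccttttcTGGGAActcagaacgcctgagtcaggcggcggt

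Among known Notch target genes, Hes1, Heyl and Hey1 rose in N1c and did not pass the test for the same transgene effect with Rbpj deleted (adjusted p = 0.59, 0.51 and 0.059). In the list of Notch targets 4 of 18 measured genes had a negative interaction (Hes1, Heyl, Hey1 and Nrarp), 0 a positive one, beside 0.521% and 0.319% of all genes, and the list's median was -0.15 against -0.01 over all genes. Hes1, a transcriptional repressor, read 68.0, 55.1, 67.9 and 72.7 in control, 457, 412, 1064 and 764 in N1c, 62.3, 74.4, 50.6 and 76.8 in RBPJdel, and 62.9, 108 and 70.6 in N1c_RBPJdel. All N1c arrays were high and the other 11 arrays lay in 1 low band. The N1c effect on Hes1 was 3.25 ± 0.25 without the deletion and 0.27 ± 0.26 with it, an interaction of -2.99 ± 0.36 (adjusted p = 0.000462). Heyl, a related repressor, read 82.6, 98.6, 102 and 91.7 in control, 624, 480, 585 and 538 in N1c, 99.8, 122, 96.0 and 112 in RBPJdel, and 114, 120 and 120 in the double mutant. Its interaction was -2.43 ± 0.16 (adjusted p = 1.34e-07), and again only N1c lay outside the common range. Hey1 had an interaction of -1.80 ± 0.17 (adjusted p = 2.46e-05), with 423 to 518 in N1c. It read 114, 149 and 125 in the double mutant, above every control and RBPJdel array (79.3 to 112). The N1c effect on Hey1 with the deletion was 0.47 ± 0.13. The double mutant minus control difference was 0.43 ± 0.13 (limma, adjusted p = 0.042). Nrarp, a feedback inhibitor of Notch signalling, read 156 to 329 in N1c and 64.7 to 114 elsewhere, with an interaction of -1.60 ± 0.33 (adjusted p = 0.0254). The Nrarp call was lost without any 1 of control 2, control 3, N1c 1, N1c 2, RBPJdel 1, RBPJdel 2 and N1c_RBPJdel 3, and its adjusted p lay between 0.00645 and 0.165 over all alternatives.

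Dtx1, another target and an E3 ubiquitin ligase of the Deltex family, showed a different pattern from Hes1. It read 2001, 1475, 1968 and 1242 in control, 5276, 5284, 4060 and 3742 in N1c, 367, 457, 338 and 359 in RBPJdel, and 630, 1276 and 630 in N1c_RBPJdel. The 4 groups were ordered N1c, control, double mutant and RBPJdel, and overlapped only where N1c_RBPJdel 2 lay above the lowest control array. The transgene raised Dtx1 by 1.47 ± 0.21 without the deletion and by 1.08 ± 0.23 with it (adjusted p = 0.00047 and 0.025), and the interaction of -0.39 ± 0.31 was not called (adjusted p = 0.636). The deletion alone lowered Dtx1, with a difference of -2.12 (adjusted p = 0.00012). Hey2 rose in N1c (0.66 ± 0.14, adjusted p = 0.019) and its interaction was -0.32 ± 0.21. In the other listed targets the interaction was small: 0.19 ± 0.20 in Myc, the growth regulator, 0.02 ± 0.15 in Ptcra, the pre-T cell receptor chain, 0.08 ± 0.16 in Notch3, and -0.19 ± 0.22 in Gata3. Hes5, Hes6, Hes7, Ccnd1, Bcl6, Nfkb2 and Rasal1 lay between -0.28 and 0.03, none called. Of the 34 measured parts of the pathway, which include receptors, ligands, secretase subunits, Mastermind coactivators and corepressors, 0 were called in either direction, and their values ran from -0.64 (Spen) to 0.41 (Numbl).

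**Figure D3:**
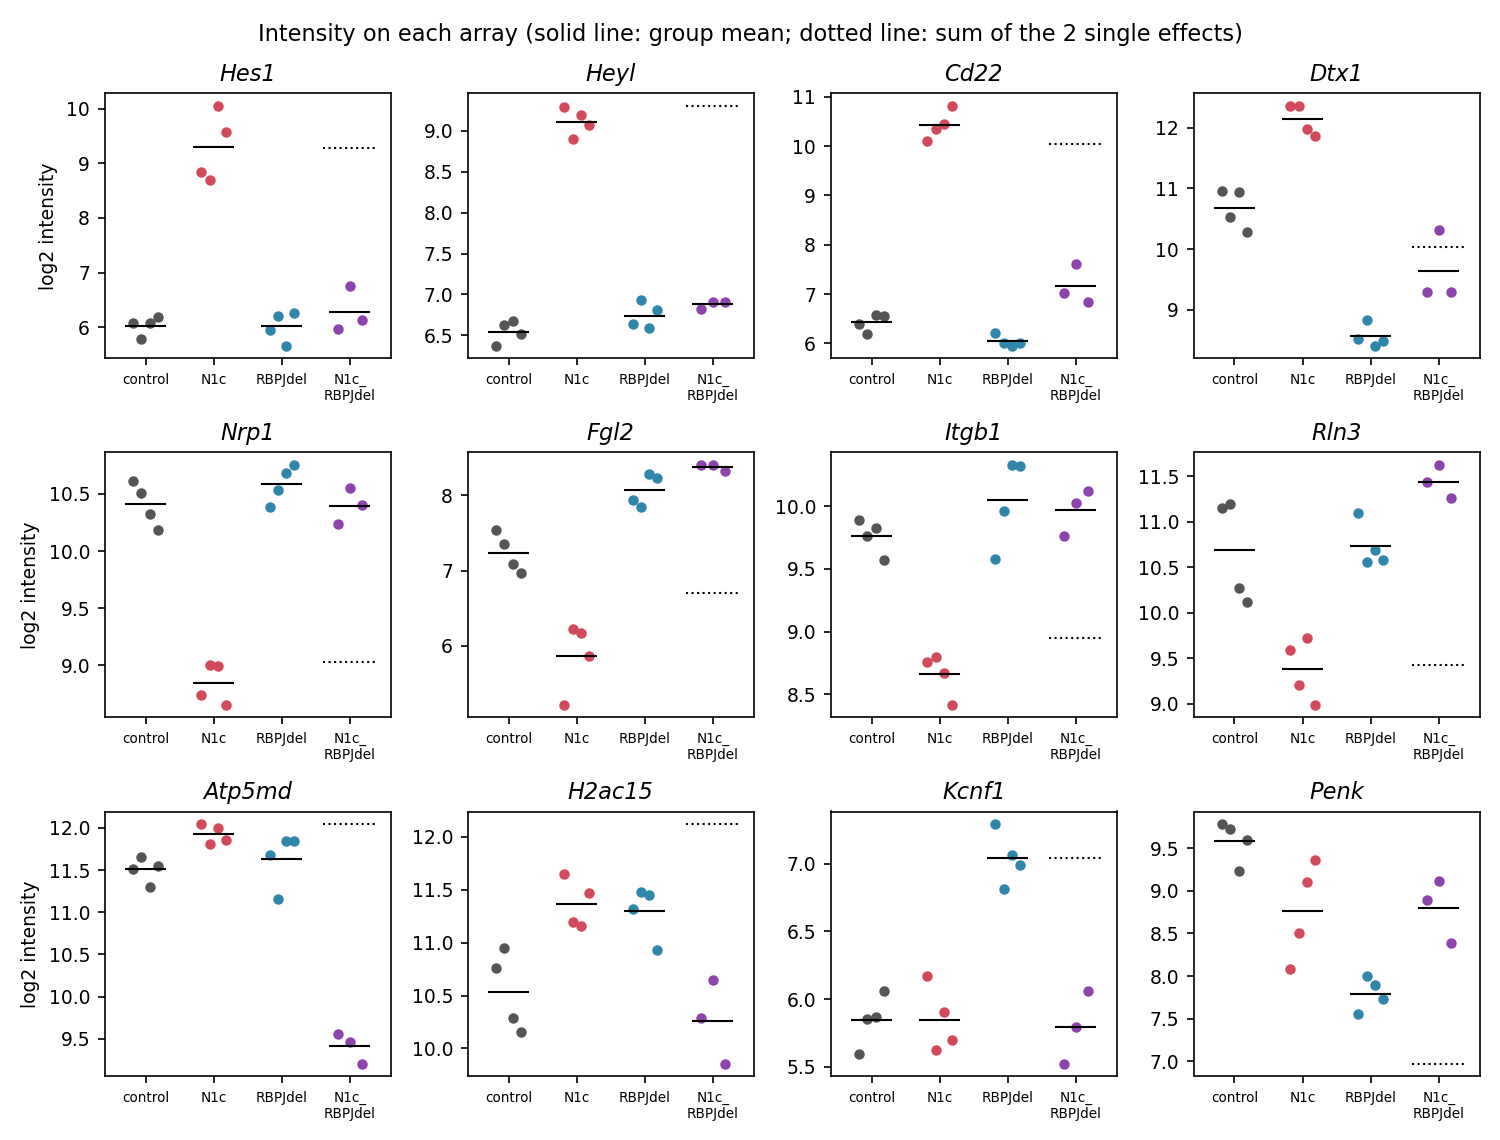
Intensity (log2, vertical axis) of 12 genes on each of the 15 arrays, by group; the solid line is the group mean and the dotted line the double-mutant level that the sum of the 2 single effects would give. In Hes1, Heyl and Cd22 the N1c_RBPJdel points lie far below the dotted line, in Dtx1 they lie around it, and in Nrp1, Fgl2, Itgb1 and Rln3 far above it. In Kcnf1 the RBPJdel points stand apart, and in Penk they are the lowest but close to the lowest N1c point.

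The largest negative interactions lay mostly outside the target list. Cd22, an inhibitory sialic acid-binding receptor best known on B cells, read 84.2, 72.6, 95.3 and 94.3 in control, 1095, 1312, 1390 and 1814 in N1c, 73.9, 64.4, 61.6 and 64.4 in RBPJdel, and 130, 195 and 115 in N1c_RBPJdel. N1c stood far above the rest, and the double mutant lay above both groups without the transgene. The N1c effect on Cd22 was 4.00 ± 0.16 without the deletion and 1.12 ± 0.17 with it, which still passed the test (adjusted p = 0.0061), and the interaction was -2.88 ± 0.24 (adjusted p = 3.76e-06). The other B cell markers did not share this: the summed intensity of the 13 markers without Cd22 was 940 to 1002 in N1c and 1002 to 1065 in control. Atp8a2, a phospholipid flippase, read 500 to 799 in N1c and 63.2 to 88.5 on the other 11 arrays, with an interaction of -3.07 ± 0.17 (adjusted p = 4.19e-08). Dnase1l3, a secreted nuclease, read 312 to 565 in N1c and 34.2 to 67.5 elsewhere, the largest called interaction at -3.11 ± 0.27 (adjusted p = 6.52e-06).

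The other named genes with a large negative interaction and N1c apart had varied roles. Pde3b, a cyclic nucleotide phosphodiesterase, had an interaction of -2.57 ± 0.37, Slc16a5, a monocarboxylate transporter family member, -2.10 ± 0.26, and Prag1, a pseudokinase, -1.92 ± 0.26 (adjusted p = 0.00191, 0.000534 and 0.00129). Tubb2b, a beta tubulin, read 816 to 1172 in N1c and 98.7 to 262 on the other arrays, an interaction of -2.20 ± 0.26 (adjusted p = 0.000407). The formin Fhdc1 had -2.13 ± 0.37 (adjusted p = 0.00876), although N1c 4 read 106 where the other N1c arrays read 302 to 334. Prag1 was also lower in RBPJdel than in control, at 120 to 167 against 316 to 374 (a difference of -1.20, adjusted p = 0.0046). Further genes of this class, named here after their values were seen, include the cytosolic pattern receptor Naip5 (-1.31 ± 0.19), the drug efflux pump Abcb1a (-1.0 ± 0.19), the transglutaminase Tgm2 (-1.35 ± 0.22), the membrane-cytoskeleton linker Marcks (-1.90 ± 0.26), the beta tubulin Tubb2a (-1.66 ± 0.25) and the E protein Tcf12 (-0.77 ± 0.13). The group means of Naip5 and Abcb1a were 92.6 and 202 in RBPJdel and 186 and 408 in control. The calls of Naip5, Abcb1a, Tgm2, Marcks, Tubb2a and Tcf12 were not followed singly under the alternatives. The count of named called genes given further down leaves them out.

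Genes of T cell function were also among the negative interactions. Itgae, the integrin chain CD103 that holds lymphocytes at epithelia, read 347, 326, 341 and 280 in control, 575, 694, 759 and 833 in N1c, 276, 350, 304 and 429 in RBPJdel, and 284, 364 and 290 in N1c_RBPJdel. N1c alone was high, and the interaction was -1.25 ± 0.21 (adjusted p = 0.00656). Fasl, the death ligand of the Fas receptor, read 212 to 334 in N1c and 70.4 to 112 elsewhere, with -1.25 ± 0.23 (adjusted p = 0.0122). Actn1, an actin-crosslinking alpha-actinin, had an interaction of -1.21 ± 0.18 (adjusted p = 0.00258), with 2141 to 2558 in N1c, 1177 to 1434 in control and 597 to 1089 on the 7 arrays with the deletion. Il12rb2, a chain of the interleukin-12 receptor, and Lef1, a transcription factor of naive T cells, were close to the threshold at -1.0 ± 0.23 and -0.68 ± 0.15 (adjusted p = 0.0493 and 0.041). The Il12rb2 call was lost without any 1 of 11 of the arrays (kept without N1c 1, N1c 2, control 5 and N1c_RBPJdel 3) and the Lef1 call without any 1 of 10 (kept without control 5, N1c 2, N1c 4, RBPJdel 4 and N1c_RBPJdel 2), with adjusted p up to 0.199 and 0.215. Il10 and Gzmb, a suppressive cytokine and a granule protease, were named after their values were seen: Il10 rose by 2.41 ± 0.39 in N1c and Gzmb by 1.93 ± 0.25, but the interactions of -1.50 ± 0.58 and -1.07 ± 0.37 were not called (adjusted p = 0.27 and 0.218). In the double mutant Il10 read 77.1, 137 and 69.3, above every RBPJdel array (at most 57.7). These values lay inside the control range of 58.1 to 174, but control 5 alone set its top (others 58.1 to 77.1). Gzmb read 237, 391 and 200 in the double mutant. Of these 3 arrays 2 lay above the control range of 184 to 229 and above every RBPJdel array (at most 217.5). With the deletion, N1c effects of 0.91 ± 0.42 (Il10) and 0.86 ± 0.27 (Gzmb) remained. Neither passed the test (limma, adjusted p = 0.227 and 0.0955).

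The share of the transgene effect left with the Rbpj deletion had a median of 11.7% for genes the transgene raised and of 37.2% for genes it lowered. Rbpj itself still read 175, 258 and 201 on the double-mutant arrays. Over the 326 genes changed in N1c against control, the median of the double-mutant effect divided by the N1c effect was 19.2% (quartiles -5.98% and 45.2%), and computed for each double-mutant array it was 17.4%, 22.7% and 17.1%. Of the 185 genes that rose, 119 kept under 25% and 4 over 75%. Of the 141 that fell, 56 kept under 25% and 21 over 75%. Of the raised genes 7 were called in the same direction with the deletion and 2 in the opposite one, and of the lowered genes 21 and 0, where 2.29% of all genes were called. The genes were chosen on the denominator, so the shares are a description and the difference between raised and lowered genes was not tested. Bright genes as a whole had a median interaction of -0.08, which became -0.002 after quantile normalization. The median N1c effect was 0.78 for raised and -0.63 for lowered genes. A general negative shift lowers the share of raised genes and lifts that of lowered ones. The split was not recomputed after quantile normalization, and the part of this shift was not tested. The median was 15.7% without control 3, 15.4% without N1c 4 and 24.1% without control 5.

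Nrp1 and Fgl2 were the members of the Treg signature list that N1c lowered and that had a called positive interaction with N1c apart. Nrp1, a semaphorin co-receptor carried by Treg that arise in the thymus, read 1569, 1458, 1279 and 1163 in control, 427, 514, 509 and 403 in N1c, 1336, 1482, 1648 and 1729 in RBPJdel, and 1206, 1502 and 1352 in N1c_RBPJdel. The 4 N1c arrays were low and the other 11 lay in 1 band. The N1c effect on Nrp1 was -1.56 ± 0.12 without the deletion and -0.19 ± 0.13 with it, an interaction of 1.37 ± 0.18 (adjusted p = 0.000974). Fgl2, a secreted suppressive fibrinogen-like protein, read 124 to 186 in control, 37.0 to 74.5 in N1c, 230 to 313 in RBPJdel and 322 to 340 in N1c_RBPJdel, so both deletion groups lay above control as well, and its interaction was 1.68 ± 0.27 (adjusted p = 0.00518). Of the 29 measured members of the Treg signature list 4 had a positive interaction (Nrp1, Fgl2, Penk and Klrg1) and 1 a negative one (Itgae), beside 0.319% and 0.521% of all genes; the list's median was 0.15. Penk and Klrg1 belong to other patterns, given further down.

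Further named genes with a positive interaction and N1c apart had varied roles. Ccl5, a chemokine of effector lymphocytes, read 469 to 650 in control, 166 to 318 in N1c, 1211 to 2828 in RBPJdel and 1963 to 3237 in N1c_RBPJdel. Both deletion groups lay above control and N1c below it, without overlap. In Ccl5 the deletion alone gave 1.63 (adjusted p = 0.0046), and the interaction was 1.78 ± 0.35 (adjusted p = 0.0204; 0.00292 to 0.067 over the alternatives, and the call was lost without RBPJdel 2). Rln3, a relaxin peptide gene, read 506 to 843 in N1c, 1112 to 2345 in control, 1510 to 2198 in RBPJdel and 2455 to 3170 in the double mutant, with 2.02 ± 0.33 (adjusted p = 0.00576). Ccr6, a chemokine receptor of Th17 and tissue-homing Treg cells, had 1.01 ± 0.19 (adjusted p = 0.0131), with 145 to 208 in N1c and 229 to 377 on the other arrays. Sytl2, a vesicle-tethering protein, had 1.33 ± 0.21, Raph1, an actin-regulating adaptor, 1.21 ± 0.20, Dhrs11, a short-chain dehydrogenase, 1.20 ± 0.19, and Fam124b 1.08 ± 0.17 (adjusted p = 0.0033, 0.00576, 0.0046 and 0.00405). In each of these 4 genes every N1c array lay below every other array. Itgb1, the integrin beta 1 chain, Ctsw, a lymphocyte cathepsin, Bnip3, a mitochondrial BH3-like protein, and Il7r, the interleukin-7 receptor, were called at 1.02 ± 0.22, 1.09 ± 0.23, 1.14 ± 0.25 and 0.71 ± 0.16. The Itgb1 call was lost without any 1 of control 2, 3 or 4, N1c 1, 4 or 5, RBPJdel 2 or N1c_RBPJdel 3, and the Ctsw call without any 1 of control 2, 3 or 4, N1c 1 or 2, or RBPJdel 2 or 3. The Bnip3 call was lost without any 1 of control 2, 3 or 5, N1c 4, RBPJdel 1, 2 or 3, or N1c_RBPJdel 1, and Il7r kept its call only without control 4, RBPJdel 3 or N1c_RBPJdel 2. Adjusted p reached 0.106 for Itgb1, 0.0706 for Ctsw, 0.0948 for Bnip3 and 0.154 for Il7r.

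In a second set of genes the double mutant alone departed from the other 3 groups. Atp5md, which encodes a small protein of the mitochondrial ATP synthase complex, read 2926, 3238, 2528 and 3003 in control, 4239, 3579, 4079 and 3722 in N1c, 3275, 2292, 3677 and 3685 in RBPJdel, and 755, 708 and 588 in N1c_RBPJdel. The 3 double-mutant arrays lay far below the other 12. The interaction of Atp5md was -2.64 ± 0.20 (adjusted p = 1.75e-06), and its 3 probe sets gave -2.64, -2.45 and -2.49. It was 1 of 47 measured oxidative phosphorylation genes called, all others being uncalled between -0.93 and 0.56; the list's median was -0.30, or -0.18 after quantile normalization. Cnpy2, an endoplasmic reticulum protein of the Canopy family, read 182 to 221 in the double mutant and 302 to 472 elsewhere, with -1.25 ± 0.16 (adjusted p = 0.001). Sorting instrument and genotype coincide for these genes.

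Klrg1 and several dim genes were higher in the double mutant. Klrg1, an inhibitory receptor of terminally differentiated lymphocytes and effector Treg, read 559, 425, 533 and 507 in control, 434, 329, 584 and 456 in N1c, 433, 442, 344 and 478 in RBPJdel, and 970, 963 and 728 in N1c_RBPJdel. Its 3 double-mutant arrays were the highest, and the interaction was 1.25 ± 0.23 (adjusted p = 0.0118). Jchain, the joining chain of polymeric antibodies, read 44.7 to 72.5 in the double mutant and 19.4 to 28.3 elsewhere (1.35 ± 0.19, adjusted p = 0.00163). H2-Ea, an MHC class II chain, read 74.9 to 110 against 33.7 to 46.2 (1.07 ± 0.16, adjusted p = 0.00296), Cd79a, a chain of the B cell receptor complex, 50.1 to 69.9 against 23.7 to 39.3 (1.05 ± 0.20, adjusted p = 0.0126), Mmp8, a neutrophil collagenase, 31.2 to 38.5 against 16.6 to 21.7 (0.89 ± 0.15, adjusted p = 0.006), and Tex24, a testis-expressed gene, 31.8 to 44.9 against 19.4 to 25.7 (1.08 ± 0.16, adjusted p = 0.00202). Car1, an erythroid carbonic anhydrase, read 852, 400 and 137 in the double mutant and 49.9 to 75.3 elsewhere, with 2.55 ± 0.50 (adjusted p = 0.0204). The Car1 call was lost without RBPJdel 2, and its adjusted p lay between 3.67e-05 and 0.0942 over the alternatives.

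Neutrophil markers had higher sums on the double-mutant arrays than on all others. The summed intensity of the 15 neutrophil markers was 1087 to 1256 in N1c_RBPJdel against 756 to 950 on the other 12 arrays; 15 of 15 had an interaction above 0, 1 was called, and 14 were dim. The 13 B cell markers without Cd22 summed to 1171 to 1446 in the double mutant, 1110 to 1257 in RBPJdel and 940 to 1065 in the other groups, and Ms4a1 (CD20) read 84.9, 50.4 and 44.2 against 25.7 to 35.8 elsewhere, an interaction of 0.94 ± 0.23 that was not called (adjusted p = 0.0739). Ms4a1 was called without N1c_RBPJdel 2 or N1c_RBPJdel 3 (adjusted p = 0.0427 and 0.0248) and with array weights (adjusted p = 0.0276). The 7 erythroid markers without Car1 summed to 671 to 845 in the double mutant, inside the range of 618 to 884 elsewhere. The NK, myeloid, dendritic cell and platelet lists had 0 calls, and the 10 Treg and CD4 T cell markers 0 as well, with a median of -0.13 and sums of 31900 to 35958 in the double mutant and 33670 to 40357 elsewhere. The part of these markers in the results was not tested. Dim genes as a whole had a median interaction of 0.06 (61.5% above 0) and bright genes of -0.08 (35.9% above 0), and both medians became -0.002 after quantile normalization. The spread of log2 values over genes was 1.72 to 1.86 on the double-mutant arrays and 1.79 to 1.95 on the others.

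RBPJdel stood apart in 2 genes by the rule of the closest other means. Kcnf1, a silent potassium channel subunit, read 48.2, 57.9, 58.3 and 66.6 in control, 71.9, 49.3, 59.8 and 51.8 in N1c, 157, 113, 134 and 127 in RBPJdel, and 45.9, 55.5 and 66.6 in N1c_RBPJdel. Only the RBPJdel arrays were high, and the interaction was -1.26 ± 0.21 (adjusted p = 0.00707). Penk, which encodes the opioid precursor proenkephalin and is expressed in Treg, read 887, 852, 605 and 779 in control, 270, 365, 551 and 659 in N1c, 188, 255, 237 and 212 in RBPJdel, and 474, 554 and 335 in N1c_RBPJdel. RBPJdel was the lowest group in Penk, but its highest array (255) lay next to the lowest N1c array (270). The double mutant overlapped N1c, and the interaction was 1.83 ± 0.33 (adjusted p = 0.0107). The transgene effect on Penk was -0.83 ± 0.23 without the deletion, which did not pass the test (adjusted p = 0.089), and 1.00 ± 0.24 with it, which did (adjusted p = 0.04).

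Control stood apart in 4 genes. Lgmn, the lysosomal protease legumain, read 194, 194, 230 and 238 in control, 480, 521, 608 and 643 in N1c, 539, 549, 567 and 754 in RBPJdel, and 815, 902 and 704 in N1c_RBPJdel. Each single change raised it and both together gave less than their sum: 1.39 ± 0.13 without the deletion, 0.43 ± 0.14 with it, an interaction of -0.96 ± 0.19 (adjusted p = 0.0204). The Lgmn call was lost under 6 alternatives: without N1c_RBPJdel 3, without N1c_RBPJdel 1 and 3, without every array numbered 4, after quantile normalization, after cyclic loess and with log2(value + 64). Its adjusted p lay between 0.00275 and 0.154. The other 3 genes were histones, H2bc14 at -1.54 ± 0.28, H2bc1 at -1.13 ± 0.21 and H2bc9 at -1.09 ± 0.20.

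Histone and cell cycle genes shared a direction that few of them carried past the threshold. Of 17 measured replication-dependent histone genes, which package newly made DNA in S phase, 5 had a negative interaction, beside 0.521% of all genes, 15 lay below 0, and the median was -0.60. H2ac15, a histone gene outside that list, read 1732, 1975, 1250 and 1137 in control and 3211, 2338, 2282 and 2832 in N1c. It read 2548, 2859, 2807 and 1958 in RBPJdel, and 1248, 1602 and 924 in N1c_RBPJdel. Either single change left H2ac15 above or at the top of the control range, and with both it lay inside or below that range (interaction -1.86 ± 0.28, adjusted p = 0.00287). The linker histone H1f1 read 178 to 192 in the double mutant and 246 to 517 elsewhere (-1.37 ± 0.20, adjusted p = 0.00191). Histone genes are near-identical copies, so probe sets may share signal and single members are uncertain.

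Of 39 cell cycle genes 38 lay below 0, with a median interaction of -0.80 and -0.80 also after quantile normalization, against -0.01 over all genes. Only Rrm2, a ribonucleotide reductase subunit, and Ube2c, a mitotic ubiquitin-conjugating enzyme, were called, at -1.71 ± 0.39 and -1.60 ± 0.35 (adjusted p = 0.0469 and 0.041). Both calls were fragile: Rrm2 was lost without any 1 of 12 arrays (kept without N1c 4, RBPJdel 4 and N1c_RBPJdel 2) and Ube2c without any 1 of 10 (kept without those 3, control 2 and control 3), with adjusted p up to 0.17 and 0.187. Ccna2, cyclin A2, had the largest value of the list, -2.93 ± 0.71, and was not called (adjusted p = 0.0676). The list's median change was 0.52 for N1c without the deletion, 0.34 for the deletion alone and -0.42 for N1c with the deletion. Relative to the control mean the list's median on single arrays was 0.23, 0.28, -0.23 and -0.23 in control, 0.69, 0.64, 0.15 and 0.55 in N1c, 0.37, 0.56, 0.42 and -0.09 in RBPJdel, and -0.04, 0.00 and -0.19 in N1c_RBPJdel. The arrays numbered 4 were the lowest of the N1c and RBPJdel groups and shared the lowest value of the control group. Mki67, the proliferation marker Ki-67 and named after its values were seen, read 271, 255, 119 and 158 in control, 630, 559, 244 and 551 in N1c, 441, 545, 515 and 137 in RBPJdel, and 207, 270 and 259 in N1c_RBPJdel. Its interaction of -1.86 ± 0.57 was not called (adjusted p = 0.155), and it was called without RBPJdel 4 (adjusted p = 0.0113) and without every array numbered 4 (adjusted p = 0.000317). With the array number as a block, the N1c effect without the deletion passed the test in Rrm2 (0.79 ± 0.11, adjusted p = 0.000691), H1f5 (1.04 ± 0.16, adjusted p = 0.00148) and Mki67 (1.34 ± 0.15, adjusted p = 0.000112), where it had not passed without the block (adjusted p = 0.227, 0.134 and 0.137). Immediate early and heat shock genes, which respond to handling, had a median of 0.62 on control 4, 0.48 on N1c 4 and 0.24 on RBPJdel 4, the highest of each group, and their part in the cell cycle values was not tested.

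**Figure D4:**
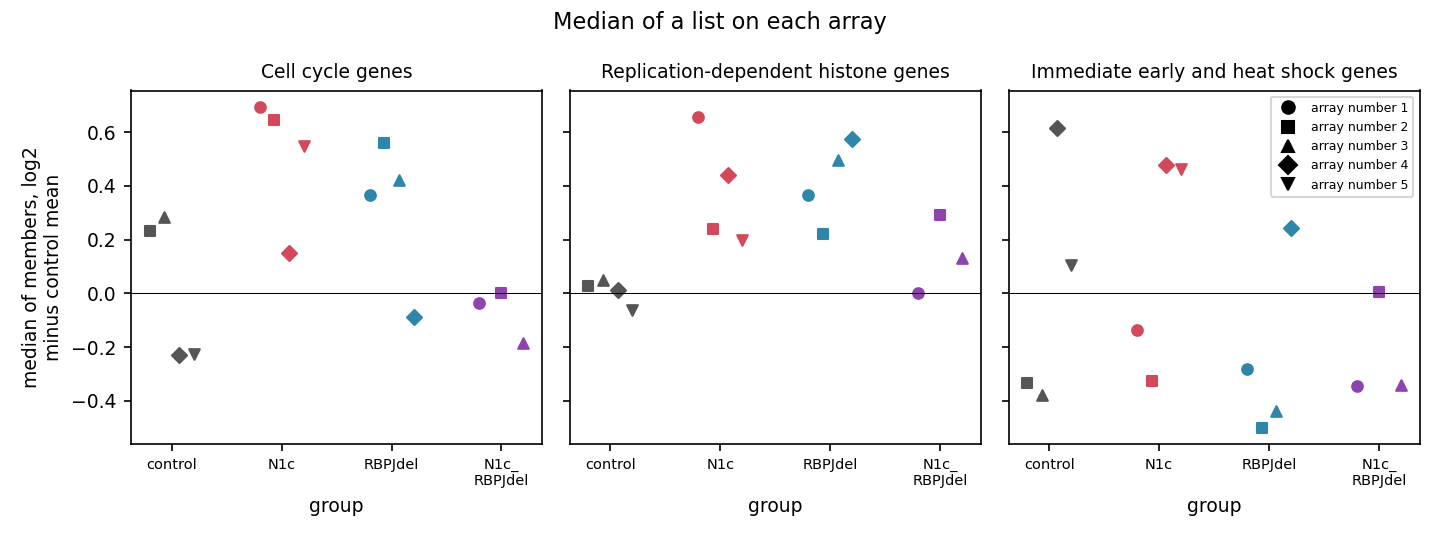
Median log2 difference from the control mean (vertical axis) of the cell cycle, histone and immediate early lists on each array, by group, with the marker shape giving the array number. Cell cycle medians are 0.15 to 0.69 in N1c and -0.19 to 0.00 in N1c_RBPJdel, and the arrays numbered 4 are low in the cell cycle panel and high in the immediate early panel.

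Other lists held few or no calls; over all genes 0.521% were called negative and 0.319% positive. The cytotoxic granule list had a median of -0.58 over 12 genes, with Fasl negative and Ctsw positive. The homing list had 2 negative calls (Itgae and Gpr183, an oxysterol receptor) and 2 positive ones (Ccr6 and Itgb1) among 26 genes. Gpr183 was close to the threshold at -0.91 ± 0.21 (limma, adjusted p = 0.0475), and its call was not followed singly under the alternatives. Of 14 resting T cell genes Actn1 and Lef1 were negative and Il7r positive, of 17 Th1 genes Fasl and Il12rb2 negative and Ccl5 positive, of 21 effector Treg genes Itgae negative and Klrg1 positive, of 11 Th17 genes Ccr6 positive, and of 9 MHC class II genes H2-Ea positive. There was no call among 13 Th2, 13 Tfh, 16 glycolysis, 24 mTOR and PI3K-Akt, 25 interferon response, 19 immediate early and 18 ribosomal protein genes. The medians of the pathway parts, homing, mTOR, apoptosis and NK lists were within 0.14 of 0 and changed sign after quantile normalization.

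**Figure D5:**
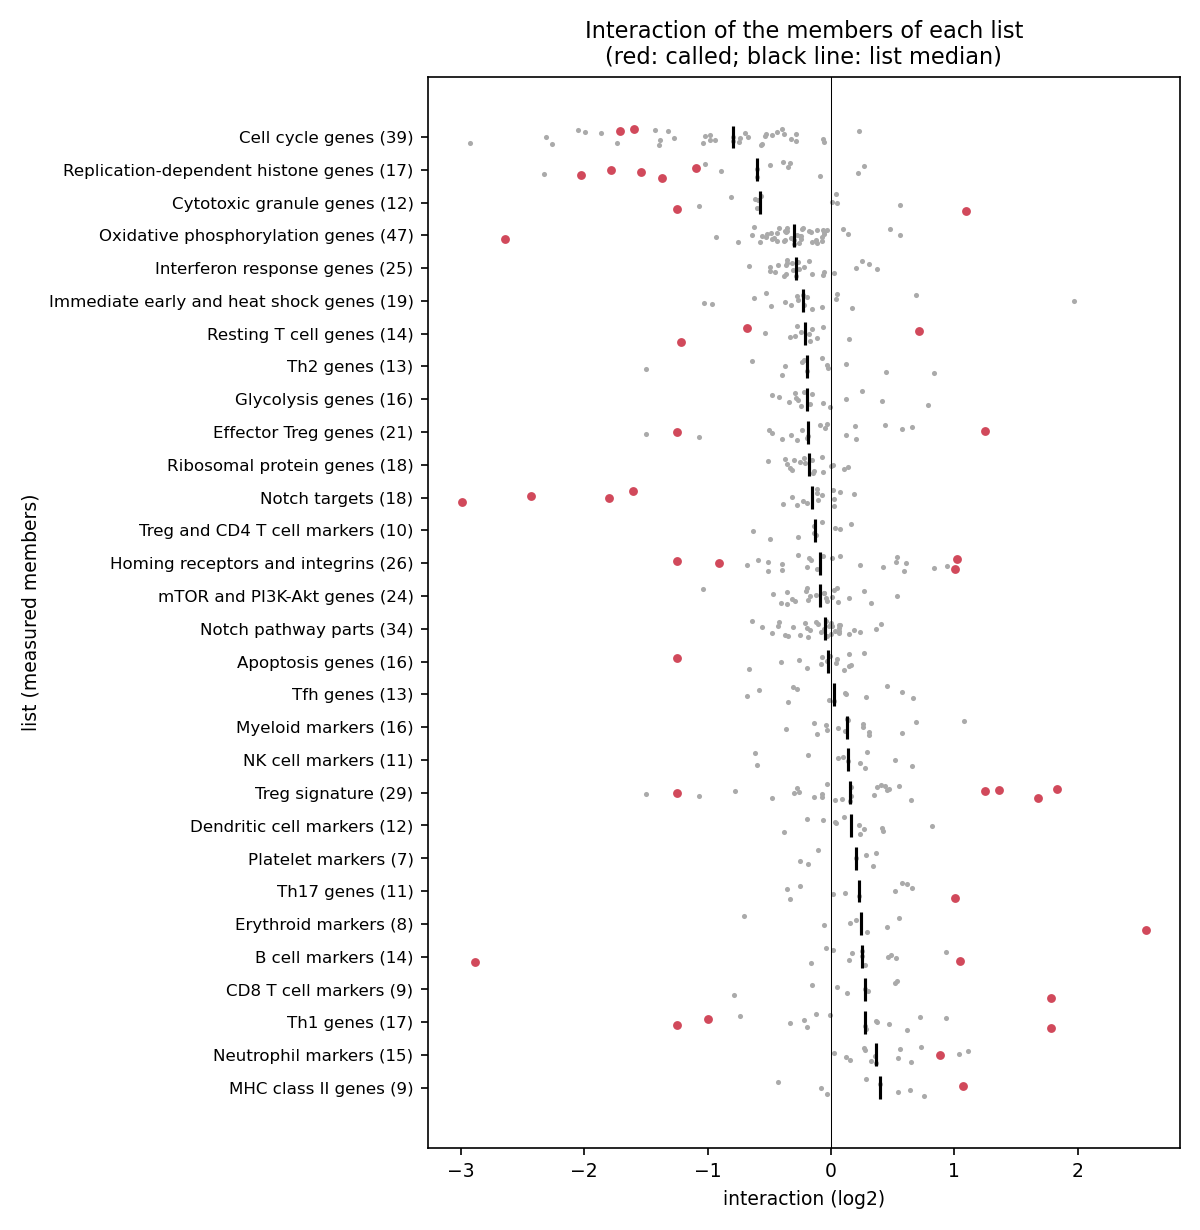
Interaction (log2, horizontal axis) of each measured member of 30 lists (vertical axis, number of members in brackets), with called members in red and the list median as a black bar. The cell cycle list has a median of -0.80 with 2 called members, the Notch targets have 4 called members far below a median of -0.15, and the Treg signature has 4 called members above 1.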

How the data were processed

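The study measured RNA of sorted splenic Treg on 15 Affymetrix arrays. Per the submitters' processing notes, the authors summarised the scans with RMA in Affymetrix Power Tools; their versions, the annotation release and any filters are not stated there. The deposited values are array intensities per transcript cluster on a linear scale (5.61 to 18029.7, array medians 107.1 to 117.2) and were converted to log2 here. Of 24922 features 21425 named 1 gene, 1399 several and 2098 none; 21347 matched the RefSeq gene table (GRCm38.p6) by Entrez ID. For 921 genes with several clusters the brightest was kept, which left 19752 genes, without a filter on low values. Correlations between arrays were 0.973 to 0.997, and their number limits the precision.

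A model with 1 mean per group was fitted with limma 3.58.1 in R 4.3.3 (11 residual and 6.15 prior degrees of freedom). Tests were two-sided, and a gene was called at a Benjamini-Hochberg adjusted p under 0.05 across the 19752 genes of a comparison. Each ± is the standard error of the fit over 3 to 4 arrays per group. The fit was tested on simulated data. Named genes were Notch1, Rbpj, Foxp3, all Notch targets, the 12 largest called values in each direction, up to 4 called genes by p for each group standing apart and direction, and up to 3 called members of each list, without predicted, receptor-segment, olfactory, vomeronasal and small RNA symbols. The comparison, gene lists and rules were chosen with earlier results of these data known. Same-numbered N1c and control arrays deviated from their group means together (correlations 0.341 to 0.497 over 3 pairs). Some pairs of different number did so as well: N1c 1 with control 2 (0.371) and control 3 (0.318), and N1c 2 with control 3 (0.350). Whether the numbers pair these arrays is therefore not settled. The arrays numbered 4 correlated at 0.341 (N1c with control), 0.417 (RBPJdel with control) and 0.457 (N1c with RBPJdel). With arrays of other numbers in these groups they ran from -0.332 to 0.109. The double mutant had no array numbered 4, and the part of this in the interaction was not tested. Blocked values of the N1c minus control difference are given beside the unblocked ones where calls change. The labels do not say what a number marks. Alternatives were quantile normalization, cyclic loess, brighter genes only, the mean of clusters, array weights, an intensity trend, robust variances, log2(value + 64), a replicate block and leaving out each array; 2 more were added after the data were seen.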

Additional observations from a re-analysis of the deposited data

Results flagged for a closer look

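The transgene effect differed between cells with and without the Rbpj deletion in 166 genes by the test of the difference itself, as described above. In 216 groups of 4 arrays of a named gene, 12 (5.56%) held an array whose gap to its nearest neighbour exceeded the limit for a single outlying value, where chance gives about 1 in 20. Among genes with a negative interaction, Pde3b read 1148 on N1c 1 against 375 to 484 on the other N1c arrays, and 47.5 on RBPJdel 3 against 52.0 to 52.4. Fhdc1 read 105.8 on N1c 4 against 302 to 334, Il12rb2 53.1 on control 5 against 41.4 to 43.3, and Lgmn 754 on RBPJdel 4 against 539 to 567. Of the engineered genes, Notch1 read 836 on control 5 against 1367 to 1443 and Rbpj 571 on control 2 against 470.3 to 483. Hes5, which had no call, read 177.5 on N1c 2 against 193.2 on each of the other N1c arrays and 249.7 on RBPJdel 2 against 193.2 to 195.8. Raph1 read 318 on RBPJdel 3 against 269.8 to 278, Il10 174.4 on control 5 against 58.1 to 77.1, and Ms4a1 31.4 on N1c 1 against 28.3 to 28.8.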

How the results depend on the processing

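All 166 called genes that were tested under an alternative kept their sign (115 were tested among brighter genes), in all 26 alternatives, and 54 to 166 kept their call. Of 50 named called genes 25 kept their call throughout; apart from losses on leaving out 1 array, Fhdc1, H2ac15, Itgae, Actn1, Mmp8, Sytl2, Fgl2, Cd79a, H2bc14, H2bc1, H2bc9, H1f5, Rrm2, Nrarp, Ube2c, Lgmn, Lef1, Il7r, Itgb1 and Bnip3 lost it without N1c_RBPJdel 1 and 3. H2bc14, H2bc1, H2bc9, Ccr6, Cd79a, Nrarp, Il12rb2, Lgmn, Lef1, Il7r, Itgb1, Bnip3 and Car1 lost it without the arrays numbered 4. Fhdc1, H1f5, Rrm2, Nrarp, Ube2c, Il12rb2, Lgmn, Itgb1, Ctsw, Ccl5 and Car1 lost it with log2(value + 64), H2bc14, H2bc1, H2bc9, Il7r and Itgb1 with array weights, H1f5, Rrm2, Ube2c and Car1 with robust variances, and Lgmn, Lef1 and (loess only) Rrm2 with other normalizations. The causes were not tested. Over all 4 groups 9 of 16 same-numbered pairs correlated above 0.1 (median 0.139, against -0.062 over 68 pairs of different number): 3 of 3 between N1c and control, but 1 of 3 between N1c_RBPJdel and RBPJdel, so numbers were not taken as pairs for the interaction. The replicate block called 288 positive and 344 negative genes, 494 and 2107 for the transgene without and with the deletion, and 183 negative and 57 positive with N1c apart and 141 and 215 with N1c_RBPJdel apart. With it 4 uncalled genes named here were called: Il10 (adjusted p = 0.0437), Mki67 (7.98e-05), Ms4a1 (0.0133) and Zfp979 (0.0478). Positive calls numbered 30 among brighter genes, 122 with array weights and 34 with log2(value + 64). With N1c_RBPJdel apart they were 5, 91 and 14, and array weights gave 41 negative ones. The transgene changed 733 genes without the deletion under array weights and 192 with it among brighter genes.

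The last 2 alternatives were chosen after the data were seen. Without N1c_RBPJdel 1 and 3 there were 45 negative calls, 226 genes changed with the deletion, 26 negative and 17 positive genes with N1c apart and 53 positive with N1c_RBPJdel apart. Without every array numbered 4 there were 296 genes changed with the deletion and 46 negative genes with N1c_RBPJdel apart. The share left was 23.4% among brighter genes, 23.5% without N1c_RBPJdel 1 and 3 and 12.7% without the arrays numbered 4. Leaving out 1 array gave 37 to 228 positive and 61 to 250 negative calls, 217 to 383 genes changed without and 76 to 1890 with the deletion, 49 to 112 and 14 to 27 with N1c apart, 6 to 132 and 19 to 200 with N1c_RBPJdel apart, and a share of 15.4% to 24.1%. Dim probe sets compress differences, and array number limits what can be called.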

Other observations

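The largest interaction value in the table was not called. Zfp979, a zinc finger gene, read 224, 8.82, 166 and 319 in control, 241, 10.7, 165 and 212 in N1c, 10.3, 9.66, 10.5 and 9.53 in RBPJdel, and 160, 161 and 232 in N1c_RBPJdel. Its arrays fell into a low level of 8.82 to 10.7 and a high level of 160 to 319, with control 3, N1c 2 and all 4 RBPJdel arrays low and the 3 double-mutant arrays high. The interaction was 4.24 ± 1.40 (limma, adjusted p = 0.188), and it was called without control 3 (adjusted p = 0.0192) and with the replicate block (adjusted p = 0.0478). The gene was singled out after its values were seen.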
